A study of Mus musculus with 24 samples.

Results

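The genes described here encode Polycomb proteins, heterochromatin proteins of the HP1 family, DNA methyltransferases and the enzymes that add or remove methyl and acetyl groups on histones. They were chosen by symbol (the Hdac, Kdm, Cbx, Setd, Sirt, Kat and Mll series and 12 single names), which gave 72 of the 23947 genes in the deposited expression table. The table lists no symbol of the form Mll plus a number, because that family appears there as Kmt2, so it is outside the 72. The study asked how Pax6 acts in mouse lens and forebrain, and its RNA-seq part is used here: 1 library of lens fibers and 1 of lens epithelium from newborn mice (P1), and 1 of embryonic forebrain (E12.5). All 3 came from CD-1 mice, with total RNA extracted and made into strand-specific dUTP libraries, and no genotype or treatment differed between them.

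With 1 library per tissue there is no replicate error, so no difference below carries a p-value or an interval, and each is a difference between 2 libraries. Forebrain was embryonic and lens newborn, and effects of tissue and of age cannot be told apart. Neither can, in bulk RNA, fewer cells of a type and less RNA per cell. Values are RPKM, read numbers scaled to gene length and library size; how the authors set the library size is not stated. The read depth behind them is unknown. Ratios are log2((RPKM + 1)/(RPKM + 1)) for genes that reached 1 RPKM in one or both libraries of a pair. This pseudocount understates differences of weakly expressed genes, and 2-fold means a log2 ratio of at least 1 in size.

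Polycomb repressive complex 2 (PRC2) methylates histone H3 at lysine 27, and complex 1 (PRC1) binds that mark and ubiquitinates histone H2A, and together they keep developmental genes silent. HP1 proteins bind methylated lysine 9 of H3 in heterochromatin, and DNA methyltransferases set and copy CpG methylation. Acetyltransferases open chromatin and deacetylases close it. Forebrain at this age holds many dividing progenitors. The epithelium is the dividing cell layer of the lens, whereas fibers have left the cell cycle, fill with crystallins and later lose their nuclei.

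The libraries carried the markers of their tissues. The 6 fiber markers summed to 57681.5 RPKM in fibers, 736.7 RPKM in epithelium and 6.07 RPKM in forebrain. The 5 neuron markers, which include Tubb3 and Dcx, summed to 4.14 RPKM in fibers, 8.49 RPKM in epithelium and 609.8 RPKM in forebrain. The 5 lens epithelium markers summed to 148.0 RPKM in fibers, 459.0 RPKM in epithelium and 34.8 RPKM in forebrain, and 4 were at least 2-fold lower in fibers than in epithelium. They differed widely. The adhesion gene Cdh1 was at 0.940 RPKM in fibers and 62.3 RPKM in epithelium, so fibers had 1.51% of the epithelial value. Trpm3 was at 85.3 and 200.8 RPKM (42.5%), and Pitx3 was level, at 37.3 and 35.0 RPKM. Genes of cell division separated the 3 libraries in steps. All 16 of them were at least 2-fold lower in fibers than in epithelium (median log2 ratio -2.86), and 14 of 16 were at least 2-fold lower in epithelium than in forebrain (median -1.26). Epithelium also held markers of other cells: 4 endothelial markers summed to 0.604 RPKM in fibers, 32.7 RPKM in epithelium and 17.6 RPKM in forebrain, 5 myeloid ones to 0.611, 21.5 and 7.87 RPKM, and 4 red blood cell ones to 5.97, 343.5 and 1131.0 RPKM. The 5 retina and pigment markers summed to 9.93, 36.5 and 5.27 RPKM, with Dct at 24.1 RPKM in epithelium. Mesenchyme markers summed to 2.80, 57.8 and 64.9 RPKM, but the epithelial sum was mostly Pdgfra, at 52.9 RPKM. The others, Col1a1, Col1a2, Col3a1 and Twist1, were lower in epithelium than in forebrain. Col3a1, for example, was at 1.94 RPKM in epithelium and 44.6 RPKM in forebrain. The part of these other cells in the results below was not tested. Crystallins made up 85.5% of the protein-coding RPKM in fibers, 9.08% in epithelium and 0.0416% in forebrain. The median log2 ratio of all genes past the filter was -0.42 for fibers over epithelium, -0.41 for fibers over forebrain and -0.03 for epithelium over forebrain. Ratios with fibers are therefore read against a general shift of this size.

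Most of the 72 genes were expressed in every tissue, and the classes differed in how they were spread (see the plot of RPKM by gene). In all, 68 reached 1 RPKM in at least 1 library. The exceptions were Cbx7, Setd1b, Kdm4d and Kdm6b, with at most 0.946 RPKM in any library. Of the 68, 13 were highest in fibers (19.1%, against 26.5% of all genes), 19 in epithelium (27.9%, against 32% of all genes) and 36 in forebrain (52.9%, against 41.5% of all genes). The order forebrain above epithelium above fibers was the most frequent, with 33 members (48.5%, against 34% of all genes). It was followed by epithelium above forebrain above fibers with 15 (22.1%, against 20.9%), fibers above epithelium above forebrain with 7 (10.3%, against 16.9%) and fibers above forebrain above epithelium with 6 (8.82%, against 9.63%). Another 4 had the order epithelium above fibers above forebrain (5.88%, against 11.1%), and 3 the order forebrain above fibers above epithelium (4.41%, against 7.56%).

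**Figure D1:**
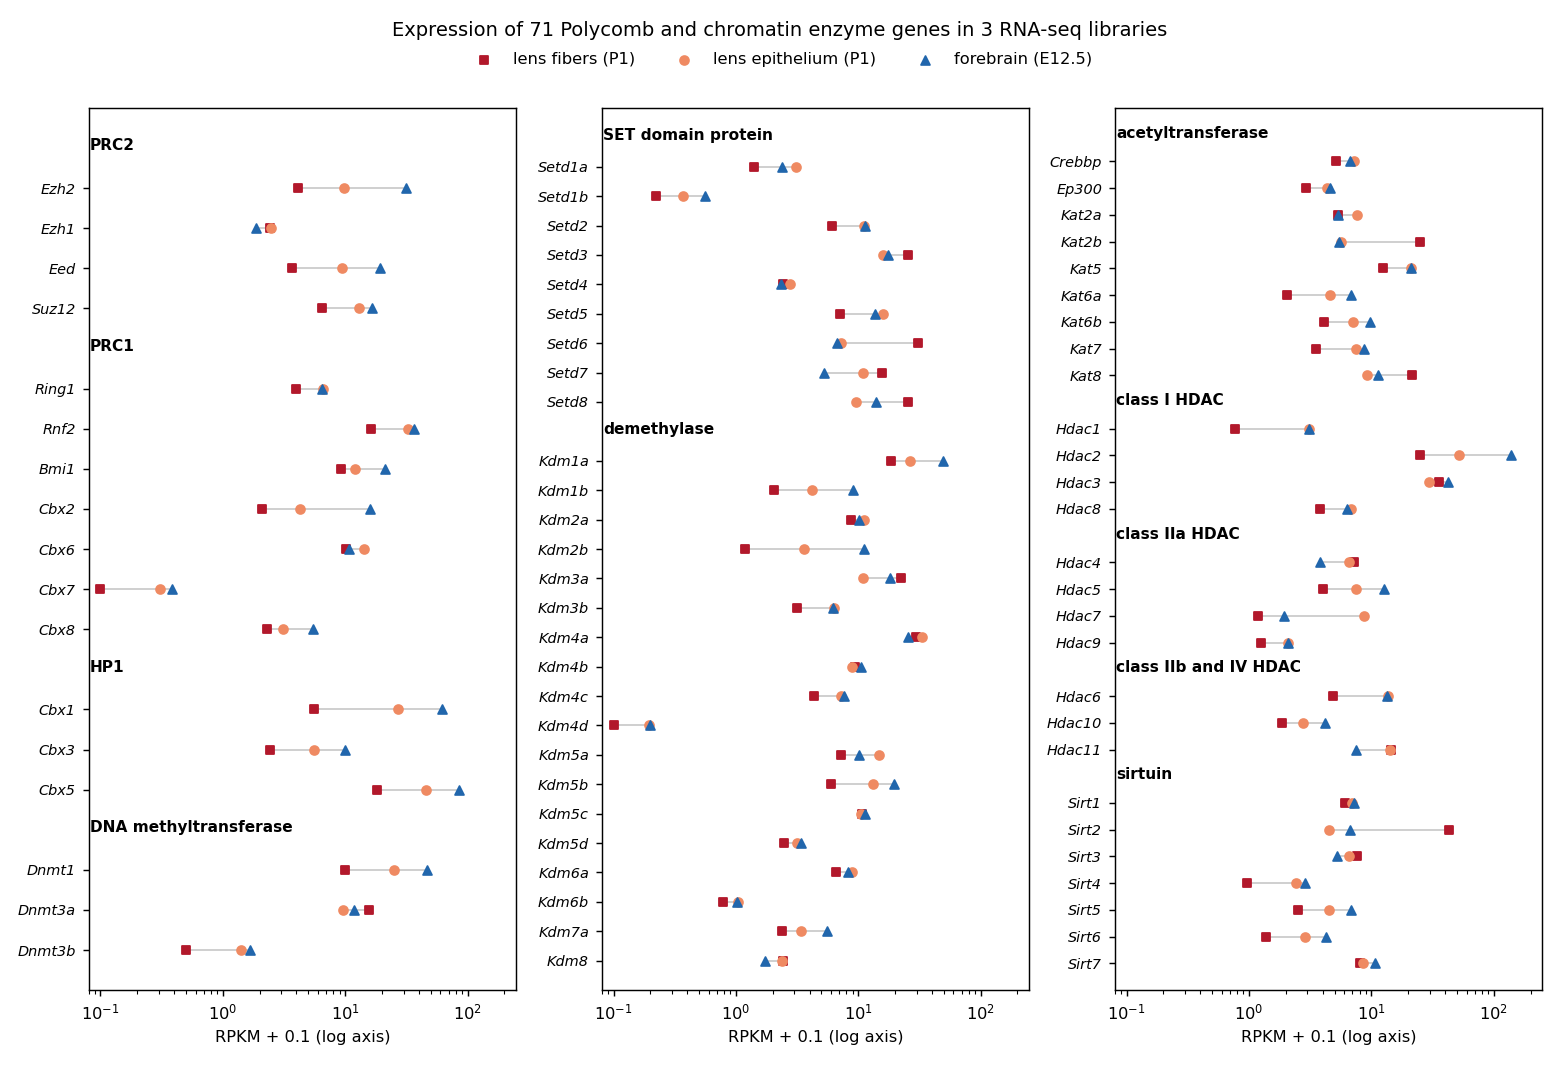
RPKM plus 0.1 on a log axis for 71 of the 72 genes, grouped by class, in lens fibers (squares), lens epithelium (circles) and forebrain (triangles), 1 library each. The squares of Ezh2, Cbx1, Dnmt1 and Hdac2 lie left of the triangles, while those of Sirt2, Setd6 and Kat2b lie right of both other symbols.

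Fibers and epithelium were both from newborn lens, and their comparison is between 1 bulk library of each. Of 68 members past the filter, 5 were at least 2-fold higher in fibers (7.35%, against 11.4% of all genes) and 12 at least 2-fold lower (17.6%, against 28.3% of all genes). The median log2 ratio of the members was -0.48, close to the -0.42 of all genes, so as a group they did not stand apart from the general shift. Comparing fibers with forebrain, 4 members were higher (5.88%, against 15.9%) and 25 lower (36.8%, against 31.6%), with a median of -0.61 for members and -0.41 for all genes. Comparing epithelium with forebrain, only Hdac7 was at least 2-fold higher (1.47%, against 13.7%), and Ezh2, Cbx2, Cbx1, Kdm2b and Hdac2 were lower (7.35%, against 11.9%), with a median of -0.13. The comparisons share libraries and are not independent of each other. At 4-fold, Sirt2 was higher in fibers than in epithelium (1 member, against 3.75% of all genes) and Cbx1 and Hdac7 lower (2 members, against 8.12%). Against forebrain at 4-fold, Sirt2, Setd6 and Kat2b were higher in fibers (3 members, against 6.37%), and Ezh2, Eed, Cbx2, Cbx1, Cbx5, Dnmt1, Kdm2b and Hdac2 lower (8 members, against 11.4%). No member differed 4-fold between epithelium and forebrain, where 4.68% of all genes were higher and 3.25% lower.

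**Figure D2:**
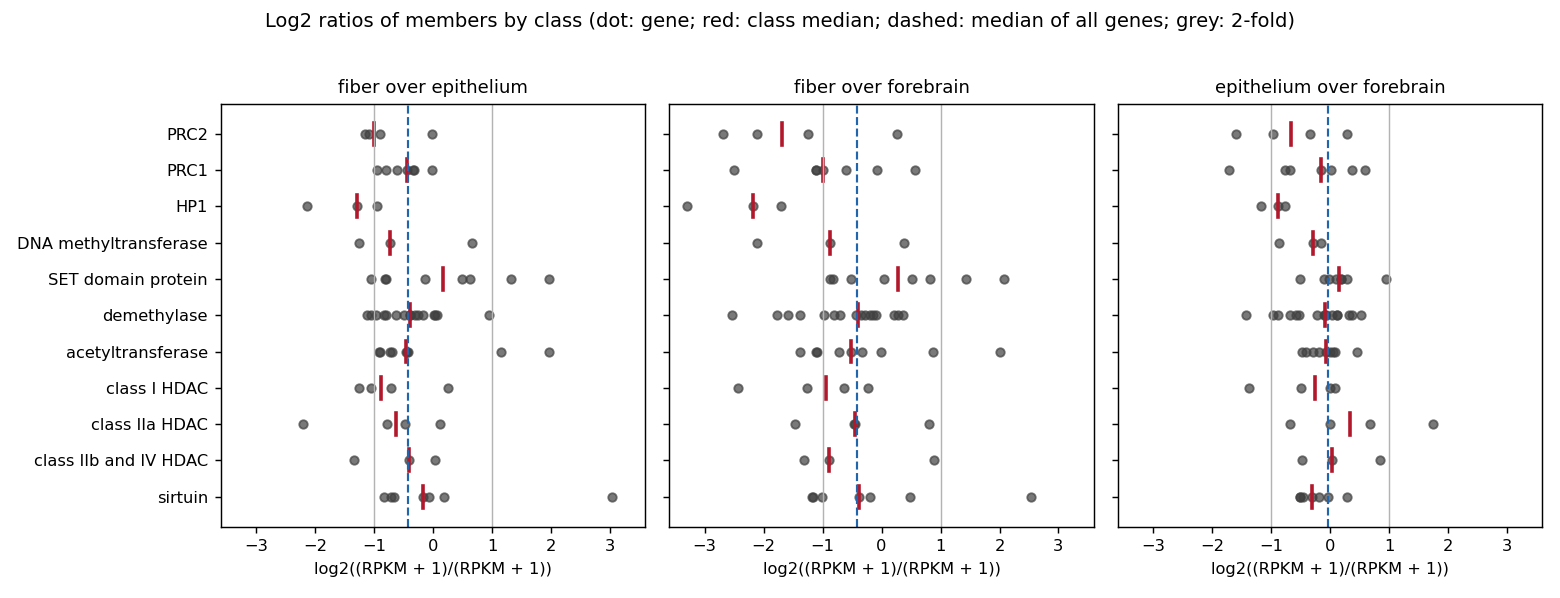
Log2 ratios of the members past the filter in the 3 comparisons, by class; each dot is a gene, the red tick the class median, the dashed line the median of all genes and the grey lines 2-fold. HP1 and PRC2 medians lie left of the dashed line in each panel, and Sirt2 at 3.04 is the dot farthest right in the left panel.

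The catalytic subunits of PRC2 differed from each other. Ezh2, the main H3K27 methyltransferase of dividing cells, was at 3.997 RPKM in fibers, 9.63 RPKM in epithelium and 31.3 RPKM in forebrain. It thus stepped down from forebrain to epithelium to fibers, with log2 ratios of -1.09 for fibers over epithelium, -2.69 for fibers over forebrain and -1.60 for epithelium over forebrain. Its paralog Ezh1, which is known from non-dividing cells, was at 2.35 RPKM in fibers, 2.39 RPKM in epithelium and 1.78 RPKM in forebrain, all within 2-fold, and the sign of both ratios with fibers changed with scaling. Within a library, where scaling between libraries plays no part, Ezh2 exceeded Ezh1 by 1.70 times in fibers, 4.03 times in epithelium and 17.6 times in forebrain. Ezh1 supplied 14.4% of the summed PRC2 RPKM in fibers, 7.02% in epithelium and 2.59% in forebrain.

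The other core subunits had the same order of libraries as Ezh2, with smaller ratios to forebrain. Eed, which binds trimethylated H3K27 and stimulates the enzyme, was at 3.61 RPKM in fibers, 9.25 RPKM in epithelium and 19.0 RPKM in forebrain. Suz12, the scaffold subunit, was at 6.38 RPKM in fibers, 12.8 RPKM in epithelium and 16.5 RPKM in forebrain. Against forebrain both were more than 2-fold lower in fibers, with log2 ratios of -2.12 for Eed and -1.25 for Suz12. Between epithelium and forebrain neither reached 2-fold. For fibers over epithelium the ratios were -1.15 for Eed and -0.90 for Suz12. When the median ratio of genes shared by the 2 libraries was set to 0, those of Ezh2 and Eed became -0.90 and -0.96, under 2-fold.

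As counted above, 25 members were at least 2-fold lower in fibers than in forebrain (36.8%, against 31.6% of all genes). The promoters of the members were searched for E2F-type words, the sites of the E2F family that is known for S-phase genes. The words were TTTCCCGC, TTTGGCGC, TTTCGCGC and TTTGCCGC on either strand, in the 300 bases from 250 before to 50 after each RefSeq start site on GRCm38.p6. RefSeq promoters were at hand for 60 of the 72 genes. Of 31 promoters of members at least 2-fold lower in fibers than in forebrain, 5 held such a word (16.1%), those of Ezh2, Suz12, Dnmt1, Cbx3 and Sirt4. It was found in 1 of 49 promoters of members within 2-fold (2.04%, Kat2a) and in 0 of 5 promoters of members at least 2-fold higher. The share was 2.26% of all 32851 promoters, and 5.15% of the 8701 promoters with at least 20 CpG, while promoters of the lower members had a median of 24 CpG and all promoters a median of 7. The 31 promoters of the lower members came from 22 genes, of which 5 held the word. Cbx1, Cbx5, Eed, Hdac2 and Kdm2b were among those without it. The lower members were grouped by their measured ratios, and a match is only a match of letters. A part of E2F in these differences was not tested. Other words were searched on both strands and could overlap. CCAAT was in 45.2% of promoters of the lower members and 38.8% of those within 2-fold (all promoters 37.4%), the GC box GGGCGG in 67.7% and 63.3% (35.7%), and the palindromic NRF1 consensus in 9.68% and 0% (0.971%). The NRF1 share of the lower members was 3 promoters from 2 genes, Dnmt1 and Sirt6. Among promoters with at least 20 CpG, 32.9% held CCAAT, 80.9% the GC box and 2.53% the NRF1 consensus.

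The promoters of Ezh2, Suz12 and Dnmt1 are shown with the E2F-type words in capitals, and that of Sirt2, the gene with the largest difference in the other direction, which holds none of the 4 words. They lie on GRCm38.p6 at chr6:47594981-47595280 (minus strand), chr11:79992856-79993155 (plus), chr9:20952574-20952873 (minus, 1 of several start sites of Dnmt1) and chr7:28766502-28766801 (plus), from RefSeq, and each is written 5′ to 3′ along its gene.
Ezh2: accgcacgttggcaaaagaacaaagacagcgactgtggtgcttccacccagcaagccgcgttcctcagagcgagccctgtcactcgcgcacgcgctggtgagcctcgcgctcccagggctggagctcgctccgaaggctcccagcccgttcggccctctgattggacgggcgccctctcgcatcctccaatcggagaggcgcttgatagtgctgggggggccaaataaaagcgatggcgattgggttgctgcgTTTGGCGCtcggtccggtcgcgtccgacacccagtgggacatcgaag
Suz12: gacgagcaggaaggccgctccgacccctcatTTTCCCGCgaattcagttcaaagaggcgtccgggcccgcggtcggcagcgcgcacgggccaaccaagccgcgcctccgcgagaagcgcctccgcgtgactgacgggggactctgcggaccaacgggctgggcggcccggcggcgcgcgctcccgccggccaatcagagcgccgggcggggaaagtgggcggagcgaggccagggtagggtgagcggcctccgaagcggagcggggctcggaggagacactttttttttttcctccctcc
Dnmt1: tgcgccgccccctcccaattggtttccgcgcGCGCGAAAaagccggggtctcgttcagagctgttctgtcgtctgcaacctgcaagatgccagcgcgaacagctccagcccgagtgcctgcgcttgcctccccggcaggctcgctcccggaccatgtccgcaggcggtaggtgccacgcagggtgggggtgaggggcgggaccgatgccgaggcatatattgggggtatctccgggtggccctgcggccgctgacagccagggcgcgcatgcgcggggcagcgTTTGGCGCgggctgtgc
Sirt2: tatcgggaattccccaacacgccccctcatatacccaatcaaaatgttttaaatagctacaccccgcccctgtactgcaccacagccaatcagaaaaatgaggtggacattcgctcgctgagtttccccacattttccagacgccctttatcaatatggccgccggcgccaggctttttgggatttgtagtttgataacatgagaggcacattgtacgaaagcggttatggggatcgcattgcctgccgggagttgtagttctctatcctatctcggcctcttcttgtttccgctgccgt
Counted from the start site as position 1, the word starts at base 4 in Ezh2 and at base 34 in Dnmt1, and lies upstream, at base -219, in Suz12 and, for the first of the pair, in Dnmt1.

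PRC1 combines a RING-type ubiquitin ligase with a Polycomb group partner and a Cbx chromodomain protein. Rnf2, the main ligase subunit, was at 16.2 RPKM in fibers, 32.3 RPKM in epithelium and 36.3 RPKM in forebrain, and its paralog Ring1 at 3.87, 6.44 and 6.36 RPKM in the same order. Rnf2 remained the higher of the pair within each library, by 4.18 times in fibers, 5.02 times in epithelium and 5.71 times in forebrain. Bmi1, which stimulates the ligase, was at 9.18 RPKM in fibers, 11.9 RPKM in epithelium and 21.0 RPKM in forebrain. For fibers over forebrain Rnf2, Bmi1 and Cbx8 passed 2-fold (log2 ratios -1.12, -1.11 and -1.0) but not with the median of shared genes set to 0. Ring1 stayed within 2-fold in all 3 comparisons.

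The Cbx subunits of PRC1, which read H3K27 methylation, were not lower together. Cbx2 was at 2.004 RPKM in fibers, 4.195 RPKM in epithelium and 16.0 RPKM in forebrain, the steepest difference in PRC1 (log2 ratio -2.50 for fibers over forebrain and -1.71 for epithelium over forebrain). Cbx8 was at 2.21, 3.02 and 5.41 RPKM in fibers, epithelium and forebrain. In contrast, Cbx6 was at 10.1 RPKM in fibers, 14.1 RPKM in epithelium and 10.6 RPKM in forebrain and did not reach 2-fold in a comparison. Cbx2 held 4.17% of the summed PRC1 RPKM in fibers, 5.46% in epithelium and 16.2% in forebrain, while Cbx6 held 20.9%, 18.3% and 10.8%. Cbx7 was listed at 0 in fibers and at 0.206 RPKM in epithelium and 0.285 RPKM in forebrain.

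All 3 HP1 genes were at least 2-fold lower in fibers than in forebrain (all genes 31.6%), 2 were lower in fibers than in epithelium (all genes 28.3%), and Cbx1 was lower in epithelium than in forebrain (all genes 11.9%), though at -0.91 under 1 of the scalings. Cbx1 (HP1 beta) was at 5.42 RPKM in fibers, 27.1 RPKM in epithelium and 62.2 RPKM in forebrain. Its log2 ratio of -3.30 for fibers over forebrain was the lowest of all 68 members, and it was at -2.13 for fibers over epithelium. Cbx5 (HP1 alpha) was at 18.2 RPKM in fibers, 46.0 RPKM in epithelium and 85.7 RPKM in forebrain, and it remained the most abundant HP1 gene in each library, with 70.0% of the HP1 sum in fibers, 58.6% in epithelium and 54.3% in forebrain. Cbx3 (HP1 gamma) was at 2.35, 5.44 and 9.96 RPKM, with a ratio of -0.95 for fibers over epithelium that passed 2-fold in 4 of 6 settings. RefSeq lists 6 pseudogenes of Cbx3, and the sources used here do not say how reads with several matches were counted, so its level is uncertain. For Cbx1 and Cbx5 the difference between fibers and epithelium stayed at least 2-fold under all 6 settings of pseudocount and scaling that were compared.

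Of the DNA methyltransferases, the maintenance enzyme was lower in fibers and a de novo enzyme was not. Dnmt1, which copies methylation after replication, was at 9.87 RPKM in fibers, 24.8 RPKM in epithelium and 46.1 RPKM in forebrain (log2 ratios -1.25 for fibers over epithelium and -2.12 for fibers over forebrain). Uhrf1, the partner that brings Dnmt1 to replicated DNA, was much lower in fibers, at 0.632 RPKM against 18.5 RPKM in epithelium and 49.4 RPKM in forebrain, so fibers had 3.41% of the epithelial Uhrf1 value and 39.8% of the epithelial Dnmt1 value. Dnmt3a, a de novo methyltransferase, was at 15.6 RPKM in fibers, 9.47 RPKM in epithelium and 11.8 RPKM in forebrain. Its ratio to epithelium was 0.66, or 0.20 to 0.89 across the 6 settings, and its ratio to forebrain changed sign among them. Dnmt3b was at 0.398, 1.30 and 1.57 RPKM. As a result Dnmt3a made up 60.3% of the summed methyltransferase RPKM in fibers, 26.6% in epithelium and 19.8% in forebrain. RefSeq lists 1 pseudogene of Dnmt3a and 1 of Dnmt3b, and reads from them could not be told apart here.

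**Figure D3:**
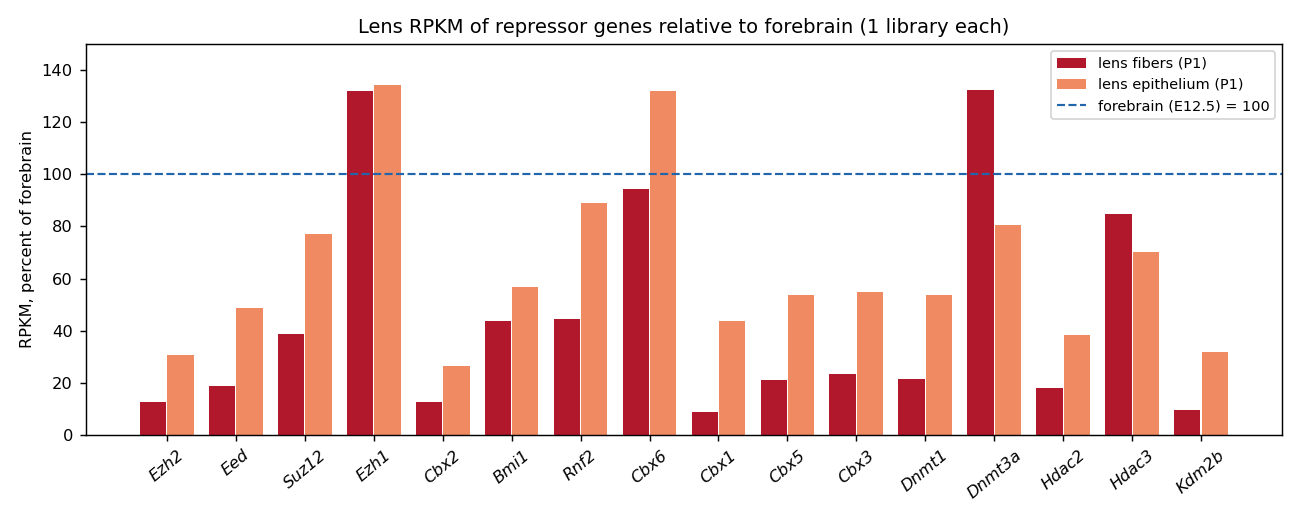
RPKM in lens fibers (dark bars) and lens epithelium (light bars) as percent of the forebrain value (dashed line at 100) for 16 genes of PRC2, PRC1, HP1, DNA methylation, class I HDACs and Kdm2b, 1 library each. The bars of Cbx1, Kdm2b, Ezh2 and Cbx2 in fibers lie between 8.72 and 12.8 percent, and those of Ezh1 and Dnmt3a above 100.

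Among the SET domain proteins, several genes were highest in fibers. Setd6, known for methylating the NF-kappa-B subunit RelA, was at 30.8 RPKM in fibers, 7.13 RPKM in epithelium and 6.55 RPKM in forebrain. Its log2 ratio was 1.97 for fibers over epithelium and 2.07 for fibers over forebrain, and it remained at least 1.49 and 1.66 across the 6 settings. RefSeq places 2577 bases of Setd6 within the span of Cnot1, which was at 8.30 RPKM in fibers, 9.12 RPKM in epithelium and 14.9 RPKM in forebrain. How reads in the overlap were assigned is not known, and their part in the Setd6 values was not tested. Setd8, which monomethylates histone H4 and has the current symbol Kmt5a, was at 25.2 RPKM in fibers, 9.49 RPKM in epithelium and 13.9 RPKM in forebrain. The log2 ratio of Setd8 to epithelium was 1.32, and it became 0.84 when crystallins were left out and library sums made equal. Setd7, an H3K4 monomethyltransferase that also acts on other proteins, was higher in both lens libraries, with 15.7 RPKM in fibers, 10.9 RPKM in epithelium and 5.19 RPKM in forebrain. Its ratio of 0.94 for epithelium over forebrain passed 2-fold in 4 of 6 settings.

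Of the remaining Setd genes, only Setd5 passed 2-fold in a comparison as deposited. Setd3, a methyltransferase of actin, was at 25.2 RPKM in fibers, 16.0 RPKM in epithelium and 17.3 RPKM in forebrain, under 2-fold. Setd5 was at 7.02, 15.7 and 13.7 RPKM, a log2 ratio of -1.06 for fibers over epithelium, or -0.85 with the median of shared genes set to 0. Setd2, which trimethylates H3K36, was at 5.96, 11.1 and 11.3 RPKM, and Setd1a, Setd1b and Setd4 were below 3.02 RPKM in each library. As a class, 2 of 8 were at least 2-fold higher and 1 lower in fibers than in epithelium (median log2 ratio 0.18), against 11.4% and 28.3% of all genes. Of these, Setd6 alone passed in all 6 settings.

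Of 16 demethylases past the filter, 14 were under 2-fold for fibers over epithelium, all but Kdm2b and Kdm5b (all genes 28.3% lower), and 15 for epithelium over forebrain, all but Kdm2b (all genes 11.9% lower). Kdm2b, which brings a variant PRC1 to CpG islands, was at 1.08 RPKM in fibers, 3.53 RPKM in epithelium and 11.1 RPKM in forebrain, with log2 ratios of -1.12, or -0.995 with the median of shared genes set to 0, for fibers over epithelium and -2.54 for fibers over forebrain. Kdm1a (LSD1), an H3K4 demethylase of the CoREST complex, was at 18.4 RPKM in fibers, 26.3 RPKM in epithelium and 49.4 RPKM in forebrain, and its paralog Kdm1b at 1.94, 4.11 and 9.02 RPKM. Kdm5b, an H3K4 demethylase, was at 5.85, 13.1 and 19.5 RPKM, with a ratio of -1.05 for fibers over epithelium, or -0.84 with the median of shared genes set to 0. Kdm1a, Kdm1b, Kdm2b and Kdm5b were the demethylases at least 2-fold lower in fibers than in forebrain (4 of 16, against 31.6% of all genes).

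With a pseudocount of 1 and the deposited scaling, none of the demethylases was at least 2-fold higher in a lens library. Kdm3a, an H3K9 demethylase, came closest in fibers, with 22.1 RPKM against 10.9 RPKM in epithelium and 18.0 RPKM in forebrain (log2 ratio 0.96 for fibers over epithelium, or 1.18 with the median of shared genes set to 0). The most abundant in fibers was Kdm4a, an H3K9 and H3K36 demethylase, at 29.6 RPKM in fibers, 33.4 RPKM in epithelium and 25.4 RPKM in forebrain. Of the enzymes that remove H3K27 methylation and so oppose PRC2, Kdm6a was at 6.51, 8.80 and 8.07 RPKM and Kdm6b at 0.692, 0.946 and 0.915 RPKM, with Kdm6a 9.42, 9.31 and 8.83 times above Kdm6b in the 3 libraries. The X-linked Kdm5c was at 10.6, 10.5 and 11.3 RPKM and its Y-linked counterpart Kdm5d at 2.38, 3.04 and 3.30 RPKM. Kdm5a was at 7.08, 14.7 and 9.97 RPKM, with a ratio of -0.96 for fibers over epithelium that passed 2-fold in 4 of 6 settings, and Kdm2a, Kdm4b, Kdm4c and Kdm8 lay below 11.0 RPKM in every library and within 2-fold as deposited. Kdm7a was at 2.30, 3.33 and 5.45 RPKM, with a ratio of -0.97 for fibers over forebrain that passed 2-fold in 4 of 6 settings. Kdm3b was at 3.09, 6.29 and 6.16 RPKM, with a ratio of -0.83 for fibers over epithelium that passed in 3 of 6.

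Of 9 acetyltransferases, Kat2b and Kat8 were at least 2-fold higher in fibers than in epithelium (all genes 11.4%) and the other 7 were under 2-fold as deposited. Of these, Kat6a and Kat7, with log2 ratios of -0.90 and -0.92, were at least 2-fold lower in 4 of 6 settings. Against forebrain, 1 was higher in fibers (all genes 15.9%) and 3 lower (all genes 31.6%). Kat2b (PCAF), which acetylates H3 and other proteins, was at 24.7 RPKM in fibers, 5.59 RPKM in epithelium and 5.37 RPKM in forebrain. Its log2 ratio was 1.96 for fibers over epithelium and 2.01 for fibers over forebrain. Its paralog Kat2a (GCN5) was at 5.21 RPKM in fibers, 7.51 RPKM in epithelium and 5.23 RPKM in forebrain, so that Kat2b was 4.73 times Kat2a in fibers, 0.744 times in epithelium and 1.03 times in forebrain. RefSeq lists 1 pseudogene of Kat2b, and reads from it could not be told apart here. Kat8 (MOF), the H4K16 acetyltransferase, was at 21.5 RPKM in fibers, 9.12 RPKM in epithelium and 11.3 RPKM in forebrain, a ratio of 1.16 to epithelium that became 0.68 with crystallins left out and sums made equal. Kat2b and Kat8 made up 30.4% and 26.6% of the acetyltransferase RPKM in fibers, against 7.60% and 12.4% in epithelium and 6.80% and 14.3% in forebrain.

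Kat6a, Kat6b and Kat7, which acetylate H3 as subunits of related complexes, were at least 2-fold lower in fibers than in forebrain, with log2 ratios of -1.38, -1.09 and -1.11. Kat6a was at 1.94 RPKM in fibers, 4.49 RPKM in epithelium and 6.67 RPKM in forebrain, Kat6b at 3.99, 7.03 and 9.65 RPKM and Kat7 at 3.43, 7.38 and 8.55 RPKM. With the median of shared genes set to 0 the ratios of Kat6b and Kat7 were -0.91 and -0.93. RefSeq lists 2 pseudogenes of Kat6b, and reads from them could not be told apart here. The coactivators that acetylate H3K27, Crebbp and Ep300, were within 2-fold in all comparisons. Crebbp was at 5.04 RPKM in fibers, 7.11 RPKM in epithelium and 6.64 RPKM in forebrain, and Ep300 at 2.85, 4.24 and 4.52 RPKM. Kat5 (Tip60), which acetylates H2A and H4, was at 12.4, 21.1 and 21.0 RPKM.

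**Figure D4:**
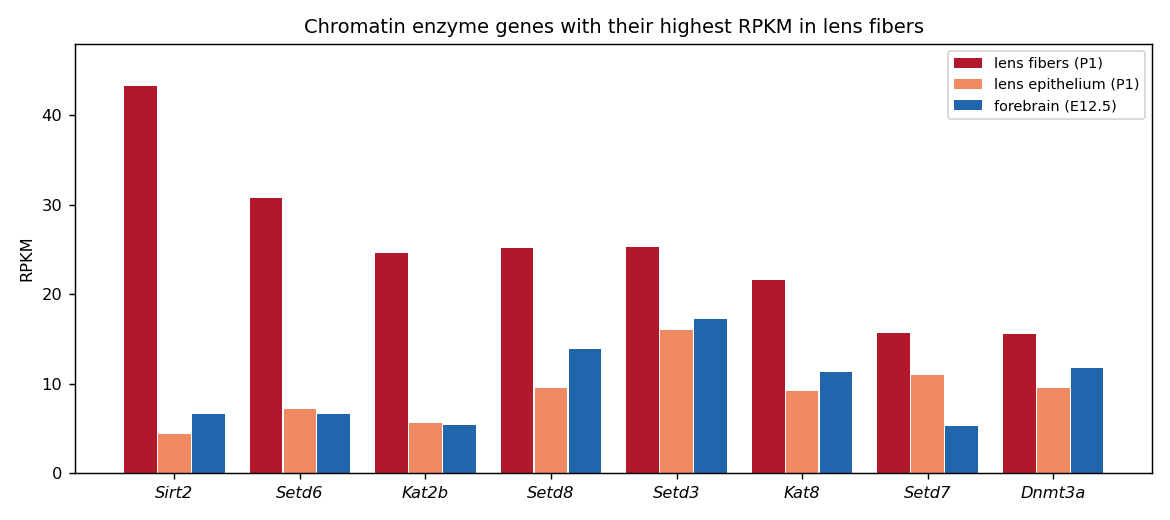
RPKM in lens fibers, lens epithelium and forebrain (left to right in each group, 1 library each) for 8 chosen from the 13 members whose highest value was in fibers. Kdm3a, at 22.1, 10.9 and 18.0 RPKM, is among those not shown. Sirt2 reaches 43.3 RPKM in fibers against 4.39 in epithelium and 6.64 in forebrain, and Setd3, Setd7 and Dnmt3a differ from epithelium by less than 2-fold.

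The class I deacetylases differed in their proportions. Of the 4, Hdac1, Hdac2 and Hdac3 are catalytic subunits of the Sin3, NuRD, CoREST or NCoR corepressors. Hdac2 was at 24.7 RPKM in fibers, 52.4 RPKM in epithelium and 137.2 RPKM in forebrain, where it was the most abundant of the 72 genes. Its log2 ratios were -1.05 for fibers over epithelium (-0.83 with the median of shared genes set to 0), -2.43 for fibers over forebrain and -1.37 for epithelium over forebrain. Hdac3, the enzyme of the NCoR complex, was at 35.8 RPKM in fibers, 29.7 RPKM in epithelium and 42.3 RPKM in forebrain, within 2-fold throughout, and its ratio of fibers over epithelium changed sign with scaling. Hdac3 made up 55.2% of the class I sum in fibers, 32.4% in epithelium and 22.4% in forebrain, and Hdac2 38.1%, 57.1% and 72.7%. Hdac1 was at only 0.668 RPKM in fibers, 2.99 RPKM in epithelium and 3.01 RPKM in forebrain. RefSeq lists a pseudogene of Hdac1, so its level is uncertain. Hdac8 was at 3.69, 6.71 and 6.26 RPKM.

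Class IIa deacetylases, which act mainly as signal-dependent corepressors, included the only member that peaked in epithelium by more than 2-fold over both other libraries. Hdac7 was at 1.08 RPKM in fibers, 8.54 RPKM in epithelium and 1.84 RPKM in forebrain, with log2 ratios of -2.20 for fibers over epithelium and 1.75 for epithelium over forebrain. Hdac7 is known from endothelium, and the endothelial markers were also highest in epithelium. Kdr was at 0.0829 RPKM in fibers, 11.4 RPKM in epithelium and 5.79 RPKM in forebrain, and Cdh5 at 0, 5.24 and 2.82 RPKM. None of them was at least 2-fold higher in epithelium than in forebrain (median log2 ratio 0.74). Other markers peaked in epithelium too, such as the myeloid C1qa at 0.377, 11.4 and 3.52 RPKM. The lens epithelium marker Cdh1 did so as well, while Pitx3 was level with fibers. The part of any of these cells in the Hdac7 value was not tested. Hdac4 was at 7.18 RPKM in fibers, 6.52 RPKM in epithelium and 3.70 RPKM in forebrain, and Hdac5 at 3.89, 7.40 and 12.54 RPKM. Hdac5 was thus 0.542 times Hdac4 in fibers, 1.14 times in epithelium and 3.39 times in forebrain. Hdac9 was at 1.16, 1.99 and 1.99 RPKM.

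Among the remaining classical deacetylases, Hdac6, a cytoplasmic enzyme that deacetylates tubulin, was at 4.79 RPKM in fibers, 13.7 RPKM in epithelium and 13.4 RPKM in forebrain (log2 ratios -1.34 for fibers over epithelium and -1.31 for fibers over forebrain). Hdac11, the class IV enzyme, was higher in both lens libraries without reaching 2-fold, at 14.5 RPKM in fibers, 14.2 RPKM in epithelium and 7.39 RPKM in forebrain. Hdac10 was at 1.76, 2.67 and 4.11 RPKM.

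Sirtuins are NAD-dependent deacylases, and Sirt2 among them had the largest difference between fibers and epithelium of all 68 members. Sirt2, a mainly cytoplasmic enzyme that like Hdac6 deacetylates tubulin, was at 43.3 RPKM in fibers, 4.39 RPKM in epithelium and 6.64 RPKM in forebrain. The log2 ratio was 3.04 for fibers over epithelium and 2.54 for fibers over forebrain, and it was at least 2.56 and 2.12 in the 6 settings. Sirt2 stood at the 94.8th percentile of protein-coding genes in fibers, the 62.1st in epithelium and the 70.6th in forebrain. It supplied 62.5% of the sirtuin RPKM in fibers, 12.3% in epithelium and 15.4% in forebrain. A noncoding gene on the opposite strand, Gm19897, overlaps Sirt2 and was at 0.537, 0.306 and 0.290 RPKM.

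None of the other sirtuins was at least 2-fold higher in fibers, and only Sirt3 among them had its highest value there. The mitochondrial genes Sirt4 and Sirt5 were at 0.872, 2.31 and 2.77 RPKM and at 2.43, 4.43 and 6.72 RPKM in fibers, epithelium and forebrain, and the nuclear Sirt6 at 1.28, 2.74 and 4.14 RPKM. For these 3 the log2 ratio of fibers over forebrain lay between -1.17 and -1.01, and that of Sirt4 became -0.90 with the median of shared genes set to 0. Sirt1, the nuclear deacetylase, was at 6.03, 6.88 and 7.09 RPKM, the mitochondrial deacetylase Sirt3 at 7.47, 6.44 and 5.09 RPKM and the nucleolar Sirt7 at 7.91, 8.37 and 10.6 RPKM.

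**Figure D5:**
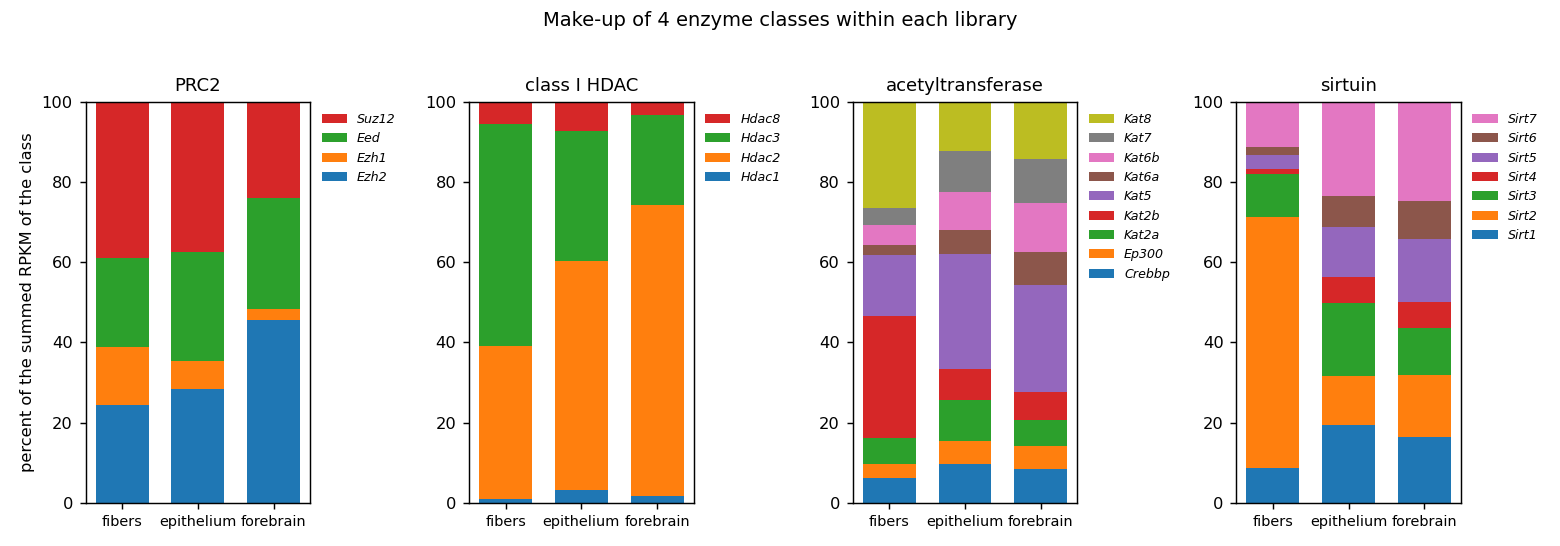
Share of each gene in the summed RPKM of its class within lens fibers, lens epithelium and forebrain, for PRC2, class I deacetylases, acetyltransferases and sirtuins. Sirt2 takes 62.5 percent of the sirtuin bar and Hdac3 55.2 percent of the class I bar in fibers, and Ezh1 grows to 14.4 percent of the PRC2 bar.

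Partners of these enzymes showed similarly mixed values. Of 6 PRC2 partners past the filter, Mtf2 and Phf1 were at least 2-fold lower in fibers than in both other libraries, with Mtf2 at 5.66 RPKM in fibers, 16.1 RPKM in epithelium and 26.4 RPKM in forebrain, and none was higher. Of 13 PRC1 partners, a list that also holds Kdm2b, 3 were lower in fibers than in epithelium and 5 lower than in forebrain, among them Pcgf3 at 3.01, 8.96 and 14.3 RPKM, and none was higher. These counts lie near the 28.3% and 31.6% of all genes that were lower. Of 8 partners of the MLL and SET1 complexes, 1 was lower in fibers than in epithelium and 3 lower than in forebrain, and Wdr5 was at 3.74, 14.0 and 22.01 RPKM. The 5 Kmt2 genes, which were added after the values were seen, were within 2-fold in each comparison (median log2 ratio -0.56 for fibers over epithelium). Of 11 partners in H3K9 and DNA methylation, 7 were lower in fibers than in epithelium (median -1.17) and 8 lower than in forebrain, and none was higher.

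Among 18 corepressor partners of deacetylases, 2 were at least 2-fold higher and 5 lower in fibers than in epithelium, with a median of -0.37, shares close to the 11.4% and 28.3% of all genes. Gatad2a, a NuRD subunit, was at 106.3 RPKM in fibers, 11.4 RPKM in epithelium and 9.15 RPKM in forebrain. Chd3, a NuRD remodeller, was at 1.38 RPKM in fibers, 9.33 RPKM in epithelium and 35.9 RPKM in forebrain. Sin3b, the scaffold of a Sin3 complex and singled out after its values were seen, was at 328.9, 81.9 and 49.3 RPKM. The paralogs of Gatad2a and Sin3b did not share this pattern: Gatad2b was at 3.43, 5.56 and 3.99 RPKM and Sin3a at 5.52, 12.9 and 15.3 RPKM. Rcor2, a CoREST subunit, was at 3.50 RPKM in fibers, 11.8 RPKM in epithelium and 65.0 RPKM in forebrain. Of 10 other histone methyltransferases, Smyd2 was the only one at least 2-fold higher in fibers than in epithelium, at 72.5, 32.7 and 9.29 RPKM in fibers, epithelium and forebrain. Of 3 other acetyltransferases past the filter, Hat1, which acetylates newly made H4, was at 22.3, 25.6 and 54.9 RPKM and Ncoa3 at 9.52, 4.57 and 2.88 RPKM.

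Across the 6 settings of pseudocount and scaling, Sirt2, Setd6 and Kat2b were at least 2-fold higher, and Cbx1, Cbx5, Dnmt1, Hdac1, Hdac6 and Hdac7 at least 2-fold lower, in fibers than in epithelium each time. For fibers over forebrain the corresponding counts were 4 higher (with Setd7 in addition) and 19 lower. For epithelium over forebrain they were Hdac7 higher and Ezh2, Cbx2, Kdm2b and Hdac2 lower. The same count over all genes was not made, so these numbers cannot be read as particular to the members. In the main setting, 31.6% of all genes were lower in fibers than in forebrain, 28.3% lower in fibers than in epithelium and 11.9% lower in epithelium than in forebrain.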

How the data were processed

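RNA values are RPKM per gene symbol as deposited by the authors, for 3 libraries. The submitters' processing notes list TopHat2 (version 2), Cuffdiff, Cufflinks (version 2) and the build mm9 for these libraries, with no roles. The sources used here do not give the annotation, whether counting used strand, how reads with several matches were handled, or how the libraries were scaled. Column sums were 2603160 RPKM in fibers, 587475 RPKM in epithelium and 598020 RPKM in forebrain. Low RPKM values did not fall on steps common to all genes, so the depth could not be recovered and is unknown, and no counting interval is given.

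The 72 members and all lists were chosen with earlier results of these data known, so their counts are descriptions. For each pair of libraries, log2((RPKM + 1)/(RPKM + 1)) was computed for genes reaching 1 RPKM in one or both, members past 2-fold were counted, and the same count over all genes was set beside it. No p-value was computed with 1 library a group. Counting of planted 4-fold differences was tested on simulated data. The planted differences were exact and in well expressed genes. That check covers the counting step only, and not weakly expressed genes or differences near 2-fold. Members of PRC2, PRC1, HP1, class I deacetylases and DNA methyltransferases, and every other member past 2-fold in a comparison, are given with all 3 values, and other members by value or range; the values of 1 member are not reported here. Partner genes are named only where past 2-fold, at most 3 a list and the largest first, except Sin3b and the paralogs set beside partners. Within-library ratios and shares do not depend on scaling between libraries but do depend on the gene lengths the authors used. Alternatives were pseudocounts of 0.1 and 0.5, other filters, a 4-fold threshold and scalings. Of the symbols, 23792 matched RefSeq (GRCm38.p6), which gave gene types, overlaps, pseudogenes and promoter sequences. The peak and island lists are on mm9, for which gene positions were not at hand, and were not used here. Python 3.11.15, pandas 2.3.3, numpy 2.4.6 and matplotlib 3.10.9 were used.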

Additional observations from a re-analysis of the deposited data

How the results depend on the processing

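With 1 library per tissue no replicate could be left out. No paired analysis was possible because each RNA group held 1 library and the numbers shared by the input libraries enter no comparison. The counts and medians with fibers depended on scaling. The median log2 ratio of genes shared by both libraries was -0.24 for fibers over epithelium and -0.23 for fibers over forebrain as deposited. For fibers over epithelium (5 higher, 12 lower, median -0.48 in the main setting), setting that median to 0 gave 6 lower and a median of -0.30, a pseudocount of 0.1 gave 23 lower and -0.65, leaving out crystallins with equal sums gave 3 higher, 31 lower and -0.89, and a 4-fold threshold gave 1 higher and 2 lower. The scaling on protein-coding genes without crystallins, added after the data were seen, gave 3 higher, 32 lower and -0.90. For fibers over forebrain (4 higher, 25 lower, median -0.61), setting the median to 0 gave 8 higher and -0.43, a pseudocount of 0.1 gave -0.75, leaving out crystallins gave -0.94, the added scaling gave -0.79, and a 4-fold threshold gave 8 lower. For epithelium over forebrain (1 higher, 5 lower, median -0.13), pseudocounts of 0.1 and 0.5 and leaving out crystallins each gave 2 higher, the added scaling gave 3 higher and a median of 0.12, opposite in sign, and a 4-fold threshold gave 0 higher and 0 lower. Other counts and medians under these settings and under the other filters stayed within 1.5 times or 0.1 of the main values. Leaving out crystallins moved the median of shared genes itself to -0.74 for fibers over epithelium and -0.66 for fibers over forebrain. The cause of these moves was not tested. Among named members no log2 ratio past 2-fold changed sign. Of all 68 members, 13 ratios of fibers over epithelium, 10 of fibers over forebrain and 12 of epithelium over forebrain changed sign with scaling or pseudocount, each of them under 2-fold throughout. Peaks at the members' start sites were not analysed, since no mm9 annotation was given.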
